A study of Rattus norvegicus with 4 samples.

Results

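The DNA repair and damage checkpoint genes are a set of 39 rat genes whose products find, process and signal damaged DNA, taken from a fixed list of names. They were measured in 4 mammary cancers of female Sprague-Dawley rats that had received carbon ions. All probe sets of a 1-colour oligonucleotide array whose platform annotation names 1 member gene and no other gene were taken, which gave 51 probe sets for 38 of the 39 genes, out of 14217 genes named on the array. No probe set was named for Atm, so it has no value here. Where a gene had several probe sets, the one with the highest mean stands for the gene. The array signal is given as log2(intensity + 16), so a difference of 1 is a 2-fold difference for well expressed genes and understates the difference of weakly expressed ones. Genes whose mean over the 4 tumours reached the median of all probe sets, 7.81 log2 or a signal of about 209, are called expressed. This held for 34 of the members and for 9401 genes in all. Chek2 (mean 7.79), Xrcc4 (7.77), Brca1 (7.27) and Atr (6.99) lay under this filter, and Fancd2 (7.94) and Brca2 (8.00) just above it.

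The 4 cancers form 1 group, with 1 array each. Every rat was female, of Sprague-Dawley background, and received 1 whole-body dose of 0.5 Gy of carbon ions at 7 weeks of age. The carbon beam ran at 290 MeV/u, with its Bragg peak, the depth at which most dose is deposited, spread over 6 cm. From 9 weeks of age the rats ate an AIN-76A diet with 23.5% corn oil. There is no unirradiated group among these samples, so no value here measures an effect of radiation or of the diet on repair genes. Whether each cancer came from a rat of its own is not stated in the labels. Each tumour was measured once, so SD below is the spread between cancers, no difference has a replicate check, and no p-value is given.

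Cells repair DNA by several routes, each suited to a kind of lesion. Broken ends of both strands are rejoined by end joining or copied from the sister chromatid by homologous recombination, altered bases are cut out by base excision repair, mispaired bases by mismatch repair, and bulky lesions by nucleotide excision repair. Checkpoint kinases sense the damage and hold the cell cycle while repair goes on. Densely ionising particles such as carbon ions leave clustered damage with many strand breaks. Several repair genes also serve DNA replication and are transcribed mainly in cells that divide.

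The repair and checkpoint transcripts varied between the 4 cancers about as much as expressed genes in general. The SD between tumours of the 34 expressed members had a median of 0.20 log2, against 0.21 log2 over all 9401 expressed genes, and the range from lowest to highest tumour had a median of 0.46 log2, against 0.47 log2. A range under 0.5 log2 was found for 19 of the 34 members, beside 54.3% of all expressed genes. Only Mgmt and Rpa1 reached a 2-fold range, which is 2 of 34 members (5.88%), beside 12.4% of all expressed genes. Tp53bp1, with a range of 0.99 log2, and Rad50, with 0.93 log2, were the nearest members short of it. No expressed member had 1 tumour that exceeded all others by 2-fold or fell short of all others by 2-fold. Over all expressed genes, such a lead was held in tumours 1 to 4 by 1.17%, 0.255%, 0.106% and 0.383%, and such a shortfall by 1.02%, 0.106%, 0.415% and 0.542%. Under the filter, Atr had a range of 0.23 log2, Xrcc4 of 0.40, Chek2 of 0.66 and Brca1 of 0.70. The count of 2 was small and turned on 1 tumour at a time: Mgmt was the only member past 2-fold without tumour 3 or without tumour 4, and Rpa1 the only one without tumour 1. Shifting each array to a common median replaced Rpa1 by Rad50 and Tp53bp1 in that count. Quantile normalization or a pseudocount of 1 added Tp53bp1 to Mgmt and Rpa1.

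**Figure D1:**
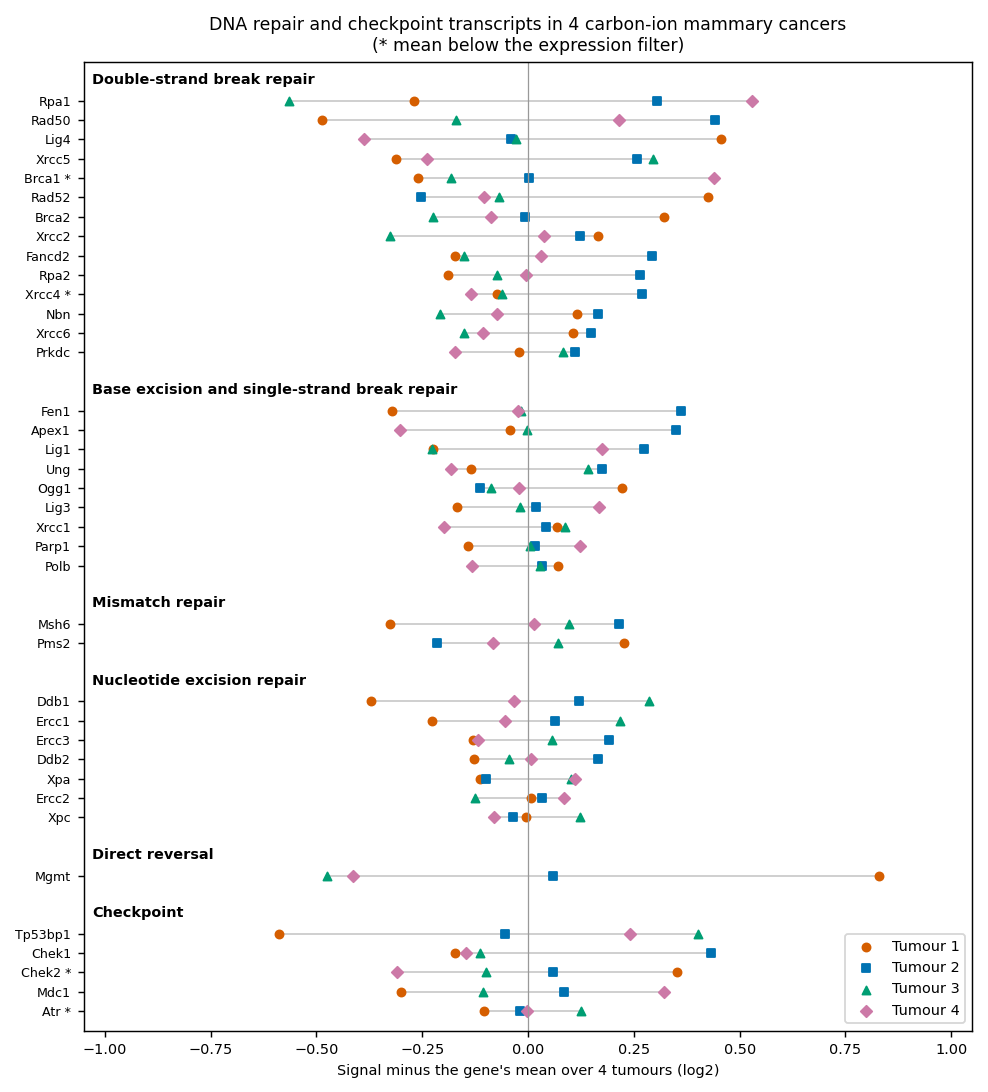
Signal of each of the 38 measured repair and checkpoint genes in tumours 1 to 4, as the difference from the gene's own mean (log2, horizontal axis), by pathway and ordered by SD. A star marks genes under the expression filter, a grey line joins the lowest and highest tumour, and the widest line, that of Mgmt, spans 1.30 log2.

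**Figure D2:**
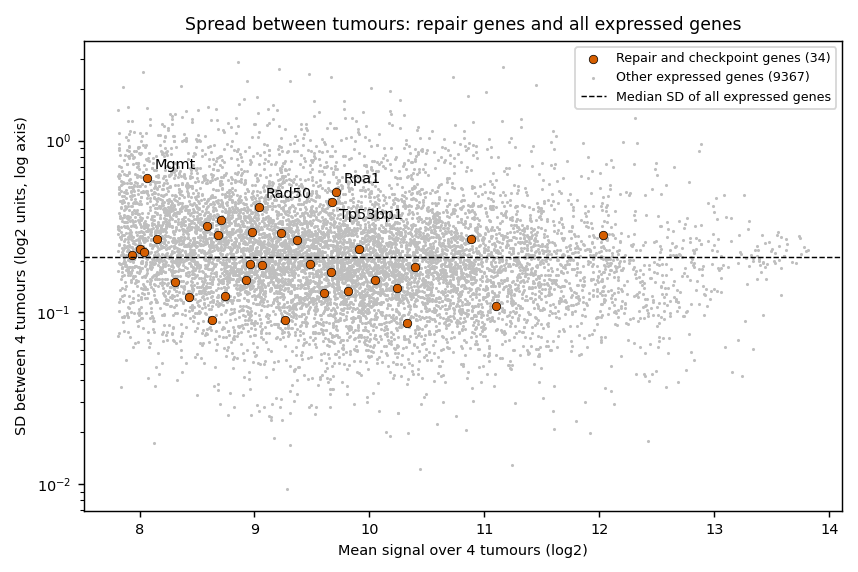
SD between the 4 tumours (log2 units on a log axis, vertical) against mean signal (log2, horizontal) for the 34 expressed repair and checkpoint genes and the other expressed genes. The dashed line is the median SD of all expressed genes, 0.21 log2, and 17 of the 34 members lie above it.

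Among the 12 expressed genes of double-strand break repair, Rpa1 had the only 2-fold range. Rpa1, the large subunit of the protein that coats single-stranded DNA in replication and recombination, measured 9.44, 10.01, 9.14 and 10.24 log2 in tumours 1 to 4. Tumours 2 and 4 were high and tumours 1 and 3 low, and the range was 1.09 log2 (SD 0.50, n = 4), an intensity ratio of 2.17 between tumour 4 and tumour 3. Rpa2, the middle subunit of the same complex, measured 8.78, 9.23, 8.89 and 8.96 log2, with tumour 2 highest and a range of 0.45 log2. Rpa1 and Rpa2 did not share their highest tumour, and the high value of Rpa1 in tumour 4 had no counterpart in Rpa2.

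The promoter of Rpa1 is shown because this gene is 1 of the 2 with a 2-fold range. It runs from 250 bases before the start of the gene to 50 bases after it, on the minus strand of rat build GRCr8 at chr10:60698230-60698529, from RefSeq. Capitals mark the 5 GC boxes (GGGCGG on either strand).
Rpa1: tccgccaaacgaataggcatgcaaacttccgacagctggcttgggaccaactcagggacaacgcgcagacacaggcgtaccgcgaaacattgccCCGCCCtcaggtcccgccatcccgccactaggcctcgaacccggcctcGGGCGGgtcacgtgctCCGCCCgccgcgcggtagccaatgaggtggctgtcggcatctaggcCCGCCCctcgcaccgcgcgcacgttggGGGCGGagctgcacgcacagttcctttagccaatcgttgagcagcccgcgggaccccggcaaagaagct
It held 34 CpG pairs, and the ratio of observed to expected CpG was 1.02, against a median of 0.91 over the members and 0.39 over all promoters of the table. A GC box was present in 22 of the 31 members with a promoter entry (71.0%) and in 33.1% of all 33469 promoters. Those promoters belong to genes expressed here or not, and no share among expressed genes is given for GC boxes or CpG. The difference is therefore not shown to be particular to repair genes.

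Rad50, which with Nbn and the nuclease Mre11 forms the complex that first binds broken ends, measured 8.55, 9.48, 8.87 and 9.25 log2 in tumours 1 to 4. Tumour 1 was lowest and tumour 2 highest. A further probe set of Rad50 at a similar signal gave 8.63, 8.92, 8.88 and 9.21 log2, again with tumour 1 lowest but with tumour 4 highest and a range of 0.58 log2. The third, under the filter at 5.35, 5.25, 4.52 and 6.07 log2, was lowest in tumour 3, so the size of the contrast is uncertain. Nbn measured 9.79, 9.83, 9.46 and 9.60 log2, a range of 0.37 log2, and was lowest in tumour 3.

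Rad52, an annealing factor of recombination, measured 9.40, 8.72, 8.91 and 8.87 log2 in tumours 1 to 4. Tumour 1 stood 0.49 log2 or more above the other tumours, which lay within 0.18 log2 of each other. Brca2, which loads the recombinase, also peaked in tumour 1, at 8.32 against 7.78 to 7.99 log2 elsewhere. Xrcc2, a paralogue of the recombinase, was at 8.21, 8.17, 7.72 and 8.08 log2, with tumour 3 low and the other tumours within 0.13 log2. Fancd2, the ubiquitinated protein at the centre of crosslink repair, was at 7.77, 8.23, 7.79 and 7.97 log2, highest in tumour 2. Brca1, under the filter, was at 7.01, 7.27, 7.09 and 7.71 log2, highest in tumour 4. In tumour 3, all 8 expressed members of recombination and crosslink repair lay below their average in the rest, with a median difference of -0.25 log2. Of these, Xrcc2, Brca2 and Fancd2 were under the level of the filter there, and Rad52 and Rpa2 differed by only -0.09 and -0.10 log2. Over all expressed genes, 45.6% lay below in tumour 3, and the median was 0.03 log2. The 13 expressed double-strand break genes outside the member list were not split by route, so they are a broader set than these 8. As a whole they did not share the low values: 6 lay below in tumour 3, with a median of 0.0048 log2.

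None of the 4 expressed end-joining genes had a 2-fold range. Lig4, the ligase that seals the ends, measured 9.16, 8.66, 8.68 and 8.32 log2 in tumours 1 to 4, a range of 0.84 log2. Its other probe set gave 9.20, 8.41, 8.38 and 8.26 log2. Both put tumour 1 highest and tumour 4 lowest. Xrcc5, the Ku80 subunit that caps broken ends, was at 8.28, 8.84, 8.88 and 8.35 log2, so that tumours 2 and 3 exceeded tumours 1 and 4. The other Xrcc5 probe set, under the filter at 7.57, 7.71, 7.42 and 7.72 log2, was lowest in tumour 3 and highest in tumour 4. Xrcc6, the Ku70 subunit and partner of Xrcc5, ranged over 0.30 log2 (8.16 to 8.46) and was highest in tumour 2. Prkdc, the catalytic subunit of the DNA-dependent kinase that Ku recruits, was at 9.58, 9.72, 9.69 and 9.43 log2, a range of 0.28 log2. In Xrcc4, the scaffold of Lig4, both probe sets were under the filter. The brighter gave 7.69, 8.04, 7.71 and 7.63 log2, highest in tumour 2, and the other 6.97, 6.63, 7.42 and 7.06 log2, lowest there. In tumour 4, all 4 expressed end-joining genes lay below their average in the rest, with a median difference of -0.27 log2. Over all expressed genes, 52.5% lay below in tumour 4, and the median was -0.02 log2.

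Base excision and single-strand break repair was the more even of the 2 largest groups, with a median SD of 0.15 log2 over 9 members against 0.23 log2 over the 12 expressed members of double-strand break repair. None of the 9 had a 2-fold range. Fen1, the flap nuclease of base excision and of lagging-strand replication, measured 8.36, 9.04, 8.67 and 8.66 log2 in tumours 1 to 4. Tumour 2 was highest and tumour 1 lowest, with a range of 0.68 log2. Apex1, the endonuclease that cuts at abasic sites, measured 10.84, 11.24, 10.88 and 10.59 log2, again highest in tumour 2. Its dim other probe set, at 6.17, 5.21, 6.20 and 7.20 log2, was lowest in tumour 2. Lig1, the replicative ligase, measured 9.15, 9.65, 9.14 and 9.55 log2, so that tumours 2 and 4 lay above tumours 1 and 3. The other Lig1 probe set, at 7.77, 8.31, 7.53 and 8.29 log2, had the same order.

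Ung, the glycosylase that removes uracil, measured 10.26, 10.57, 10.54 and 10.22 log2, with tumours 2 and 3 above tumours 1 and 4. Ogg1, the glycosylase for oxidised guanine, was at 9.15 log2 in tumour 1 and at 8.81 to 8.91 log2 in the others. Polb, the gap-filling polymerase, ranged over 0.20 log2 on its brighter probe set and over 0.54 log2 on the other. Both Polb probe sets were highest in tumour 1 (9.34 and 9.50 log2) and lowest in tumour 4 (9.13 and 8.96 log2). Lig3, the ligase that works with the scaffold protein Xrcc1, was highest in tumour 4 on both probe sets, at 10.41 and 9.62 log2. Xrcc1 itself lay between 9.86 and 9.90 log2 in tumours 1 to 3 and at 9.62 log2 in tumour 4. Parp1, the enzyme that marks strand breaks with poly(ADP-ribose), measured 10.96, 11.12, 11.11 and 11.22 log2, a range of 0.26 log2.

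The mismatch repair members moved in opposite directions between tumours 1 and 2. Msh6, a subunit of the complex that recognises mispaired bases, was at 9.58, 10.12, 10.003 and 9.92 log2 in tumours 1 to 4, lowest in tumour 1 and highest in tumour 2. Pms2, a subunit of the nicking complex that follows it, was at 9.71, 9.27, 9.56 and 9.40 log2, highest in tumour 1 and lowest in tumour 2. In tumour 3 both lay above their average in the rest, Msh6 by 0.13 and Pms2 by 0.09 log2. Their ranges were 0.54 and 0.44 log2, and each gene had 1 probe set.

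Nucleotide excision repair was the most even pathway of those with at least 3 expressed members, with a median SD of 0.12 log2 over its 7 genes and none past a 2-fold range. Ddb1, the adaptor of the ubiquitin ligase that recognises ultraviolet lesions, measured 11.66, 12.15, 12.32 and 12.00 log2 in tumours 1 to 4, a range of 0.66 log2. Its next probe set gave 11.38, 11.95, 12.01 and 11.81 log2, so both had tumour 1 lowest and tumour 3 highest. The third, under the filter, gave 6.66, 7.08, 6.75 and 7.35 log2, also lowest in tumour 1 but highest in tumour 4. Ddb2, its damage-binding partner, was at 8.61, 8.91, 8.69 and 8.75 log2, also lowest in tumour 1. Ercc1, a subunit of the nuclease that cuts on the 5′ side, was at 8.84, 9.13, 9.29 and 9.01 log2. Ercc3, a helicase of the transcription factor TFIIH, was at 9.92, 10.24, 10.11 and 9.93 log2. The other TFIIH helicase of the list, Ercc2, ranged over 0.21 log2 (8.51 to 8.72). The damage sensor Xpc ranged over 0.20 log2 (10.24 to 10.44), and Xpa, the damage-verifying protein, was at 8.31, 8.33, 8.53 and 8.54 log2. Of the 7 genes, 5 were lowest in tumour 1, beside 36.2% of all expressed genes. The margin was slight in Ercc3, at 9.92 log2 against 9.93 in tumour 4, and in Xpa, at 8.31 against 8.33 in tumour 2. Of 14 further expressed genes of nucleotide excision repair, 2 were lowest in tumour 1. Their median difference there from the average of the rest was 0.04 log2, against -0.17 for the 7.

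Mgmt, the methyltransferase that takes alkyl groups off guanine in a direct reversal and is then destroyed, had the widest range of the set. It measured 8.89, 8.12, 7.59 and 7.65 log2 in tumours 1 to 4, or intensities of 459.9, 263, 177 and 185. Tumour 1 was highest, tumour 2 intermediate, and tumours 3 and 4 lay under the level of the filter, so the size of the difference is uncertain. The range was 1.30 log2 (SD 0.60, n = 4), an intensity ratio of 2.60 between tumour 1 and tumour 3, and its SD exceeded that of 93.3% of expressed genes. Without tumour 1 the range was 0.53 log2. Mgmt was read by 1 probe set, so no further probe set bears on it.

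The Mgmt promoter is shown because it belongs to the member with the widest range. The sequence covers chr1:201140582-201140881 on the plus strand of GRCr8, from RefSeq, with its 2 GC boxes in capitals.
Mgmt: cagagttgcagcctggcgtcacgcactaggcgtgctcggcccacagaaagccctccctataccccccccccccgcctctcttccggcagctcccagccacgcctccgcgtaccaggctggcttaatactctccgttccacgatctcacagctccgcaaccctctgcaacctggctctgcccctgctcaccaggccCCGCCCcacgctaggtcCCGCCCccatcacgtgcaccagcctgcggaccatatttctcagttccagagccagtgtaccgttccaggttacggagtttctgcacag
It held 19 CpG pairs, against a median of 23 over the members and 7 over all promoters, with an observed to expected ratio of 0.70.

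Among the checkpoint genes, Tp53bp1, which binds chromatin around breaks and favours end joining, measured 9.09, 9.62, 10.08 and 9.92 log2 in tumours 1 to 4. Tumour 1 was 0.54 log2 below the nearest of the others. Its other probe set was under the filter, at 5.35 to 7.05 log2, and was lowest in tumour 2. Mdc1, the mediator that binds phosphorylated histone H2AX, measured 7.85, 8.23, 8.04 and 8.47 log2, with tumour 1 lowest and tumour 4 highest. Chek1, the kinase that restrains replication origins and mitotic entry under replication stress, measured 9.06, 9.66, 9.12 and 9.08 log2. Tumour 2 stood 0.54 log2 above tumour 3, while the other tumours lay within 0.06 log2 of each other.

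The 2 remaining checkpoint genes had dim probe sets. Chek2, the kinase downstream of Atm, measured 8.14, 7.85, 7.69 and 7.48 log2, highest in tumour 1. Atr, the kinase upstream of Chek1, was at 6.88, 6.97, 7.11 and 6.98 log2. Chek1 and Chek2 therefore had different highest tumours. All 3 expressed checkpoint genes were lowest in tumour 1, beside 36.2% of all expressed genes. Chek1 was so only narrowly, at 9.06 log2 against 9.08 in tumour 4, and Chek2, just under the filter, went the other way. The median difference of the 3 from the average of the rest was -0.40 log2 in tumour 1, against -0.04 over all. It was -0.23 log2 without the filter and -0.25 log2 with probe sets averaged. Of 9 further expressed checkpoint genes, 5 were lowest in tumour 1, with a median of -0.29 log2. In tumour 4 the median of the 3 members was 0.32 log2, but 0.07 log2 without tumour 1 and -0.0044 log2 without the filter.

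**Figure D3:**
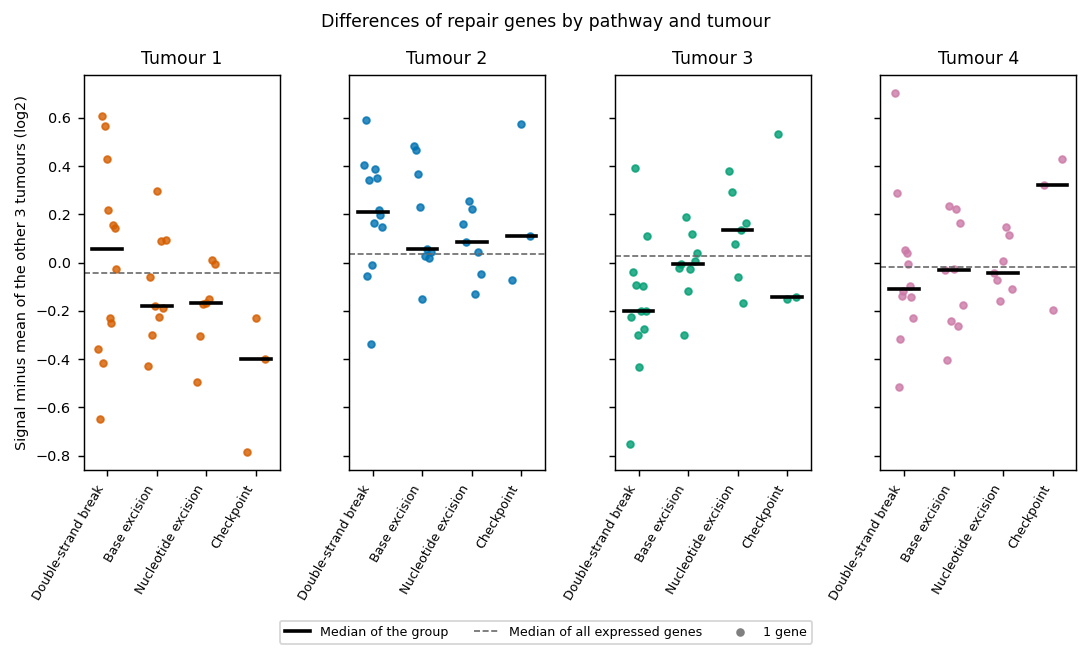
Signal of each expressed repair and checkpoint gene in 1 tumour minus its mean in the other 3 tumours (log2, vertical axis), by pathway, with the median of each group (black bar) and of all expressed genes (dashed line). The checkpoint median is -0.40 in tumour 1 and 0.32 in tumour 4 (0.07 with tumour 1 left out), and the double-strand break median is 0.21 in tumour 2 and -0.20 in tumour 3 (-0.12 with tumour 2 left out).

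Separate probe sets of 1 gene check the probes, but share the RNA and the array. Of the 11 members with more than 1 probe set, 6 had another probe set at or above the filter: Ddb1, Lig1, Lig3, Lig4, Polb and Rad50. In 5 of the 6 the same tumour was highest on both, Rad50 being the exception, and in all 6 the tumour highest on the brighter probe set exceeded the lowest one on the other as well. Over all 2327 genes with such a pair, the highest tumour was shared in 49.4% and the direction in 76.1%. Of the 7 further probe sets under the filter, 3 kept the direction. The other 4 belonged to Apex1, Rad50, Xrcc4 and Xrcc5.

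**Figure D4:**
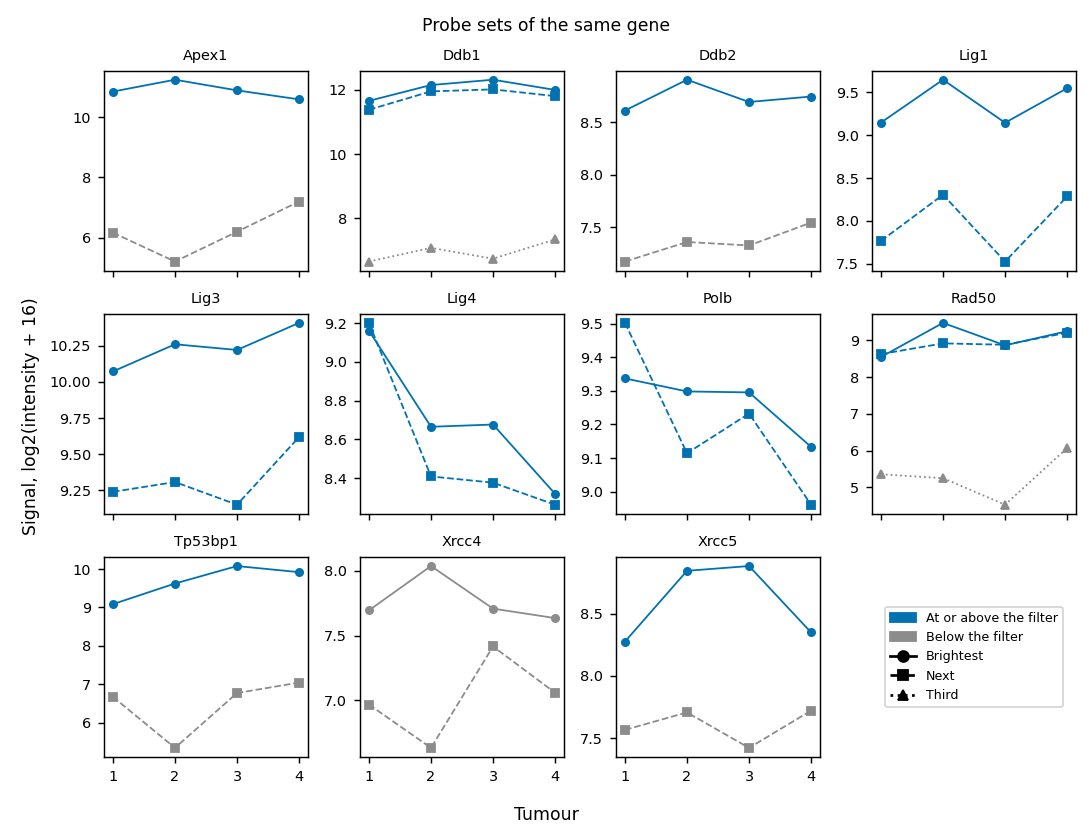
Signal, log2(intensity + 16), in tumours 1 to 4 for each probe set of the 11 members with more than 1, in blue where the probe set's mean is at or above the expression filter and in grey where it is under it. In Ddb1, Lig1 and Lig4 the paired blue lines share their highest and lowest tumours, while the grey line of Apex1 is lowest in tumour 2, at 5.21, where the blue one is highest.

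Tumour 2 held the highest signal of 14 of the 34 expressed members (41.2%), beside 26.4% of all expressed genes. These were Rad50, Fancd2, Rpa2, Nbn, Xrcc6, Prkdc, Fen1, Apex1, Lig1, Ung, Msh6, Ercc3, Ddb2 and Chek1. The lead was narrow in Prkdc, Ung, Xrcc6 and Nbn, at 0.03 to 0.05 log2. Other probe sets of Rad50 and a dim one of Ddb2 were highest in tumour 4. The dim one of Apex1 was lowest in tumour 2, while that of Lig1 was highest there. In tumour 2 the members' median difference from their average in the rest was 0.15 log2, against 0.04 over all expressed genes, and 26 of 34 lay above that average, beside 55.6% of all. Among the 14, the replication-linked genes Fen1 and Chek1 differed most after Rad50. The proliferation list moved the same way: of 20 expressed genes of the 22 listed, 17 were highest in tumour 2, with a median difference of 0.55 log2. Bub1, a kinase of the spindle checkpoint, was at 7.98, 8.92, 8.16 and 7.71 log2 in tumours 1 to 4, and the cyclin gene Ccna2 at 9.01, 9.70, 8.69 and 8.57 log2. The summed intensity of the list was 18494 in tumour 2 and between 13180 and 13781 in the others. The part of cell division in the repair signal was not tested.

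Promoters were searched for the E2F-type word, the site class of the E2F factors that drive genes of the cell cycle's S phase, on either strand as TTTCCCGC, TTTCGCGC, TTTGCCGC or TTTGGCGC. It was found in 7 of the 31 members with a promoter entry (22.6%), against 2.14% of all 33469 promoters and 4.38% of the 7832 other expressed genes with an entry. No entry was found for Nbn, Xrcc2, Prkdc, Polb, Xpa, Ddb2, Chek2 or Mdc1. The stretches that hold the word are shown because the measured genes among them shared their highest tumour. Each is given on the gene's own strand of GRCr8, from RefSeq, with the word in capitals and up to 20 bases on each side.
Chek1, chr8:44629844-44629891 (-): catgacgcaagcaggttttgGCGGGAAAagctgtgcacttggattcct
Fancd2, chr4:148234697-148234744 (+): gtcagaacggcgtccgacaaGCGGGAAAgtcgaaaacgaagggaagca
Lig1, chr1:83243169-83243216 (+): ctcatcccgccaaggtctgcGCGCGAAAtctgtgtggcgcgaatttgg
Msh6, chr6:12333483-12333530 (-): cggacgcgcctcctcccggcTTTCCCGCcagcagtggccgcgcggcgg
Rpa2, chr5:150260759-150260806 (+): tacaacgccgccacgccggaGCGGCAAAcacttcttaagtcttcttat
Ung, chr12:48154038-48154085 (-): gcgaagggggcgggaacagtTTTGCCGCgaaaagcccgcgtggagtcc
Atm, chr8:62828841-62828879 (-): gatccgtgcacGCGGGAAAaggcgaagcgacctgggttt
In Chek1 and Fancd2, as in Atm, the word read in these stretches was GCGGGAAA, the reverse complement of TTTCCCGC, and Msh6 carried TTTCCCGC itself. None of the words overlapped a GC box or a CCAAT box (CCAAT on either strand), which was found in 12 of the 31 members (38.7%) and in 37.5% of all promoters.

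All 6 measured genes with the E2F-type word, Chek1, Fancd2, Lig1, Msh6, Rpa2 and Ung, were highest in tumour 2. There, their difference from the average of the rest lay between 0.23 and 0.58 log2, with a median of 0.36. Of the 21 expressed members whose promoter entry lacked the word, 5 were highest in tumour 2, and the differences ran from -0.34 to 0.59 log2 with a median of 0.06. Among expressed genes that are no members, 31.5% of 343 with the word were highest in tumour 2, against 26.6% of 7489 without it. The lead of tumour 2 was narrow in Ung, at 10.57 log2 against 10.54 in tumour 3, and in Lig1, at 9.65 against 9.55 in tumour 4. The word was chosen with the values known, and it is a match of letters, not a site shown to be used.

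**Figure D5:**
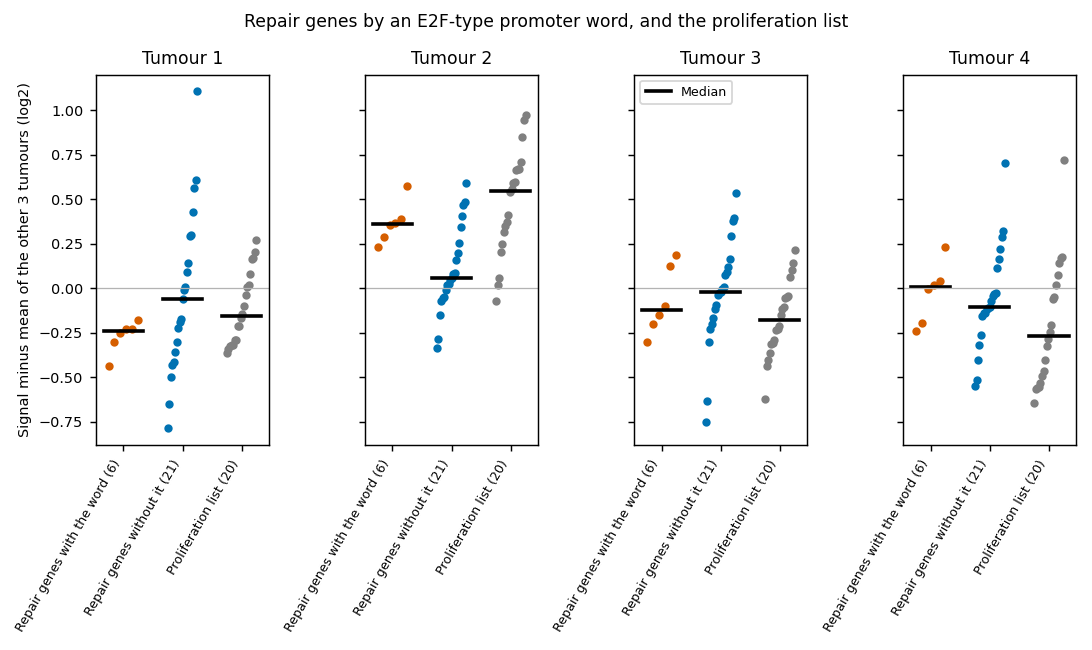
Signal in 1 tumour minus the mean of the other 3 tumours (log2, vertical axis) for expressed repair genes with the E2F-type word in their promoter, those without it, and the proliferation list, each point 1 gene in rising order and each bar a median. In tumour 2 the 6 genes with the word lie between 0.23 and 0.58, and the proliferation list has a median of 0.55.

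Tumour 1 split the set. It held the lowest signal of 16 of the 34 expressed members (47.1%), beside 36.2% of all expressed genes, among them Tp53bp1, Rad50, Ddb1, Fen1 and Msh6. It also held the highest signal of 8 members (23.5%), beside 28.1% of all: Mgmt, Lig4, Rad52, Brca2, Xrcc2, Ogg1, Pms2 and Polb. The median difference of the members in tumour 1 was -0.17 log2, against -0.04 over all expressed genes. Tumour 1 also stood apart in its cell-type markers. All 10 luminal epithelial markers were expressed and lowest in tumour 1, with a summed intensity of 31514 there and 58910 to 69079 in the others. The 6 expressed of 8 macrophage markers were all highest in tumour 1, summing to 14055 there and to 3675 to 7470 elsewhere, with Cd163 and Itgam under the filter in mean. Fibroblast markers, 6 of 6 expressed, summed to 37745 in tumour 1, 29348 and 34578 in tumours 2 and 3, and 11830 in tumour 4. The 7 basal epithelial markers, all expressed, summed to 27060, 23533, 18715 and 28499 in tumours 1 to 4, and the 4 milk genes to 39787, 35292, 44622 and 20627. Few lymphoid markers were expressed: 2 of 8 for T and natural killer cells, summing to 551 to 1159, and 1 of 5 for B cells. That B cell gene was Jchain, the joining chain of secreted antibodies, at 10.94, 7.39, 6.68 and 10.74 log2. Of 5 endothelial markers 3 were expressed, summing to 910 to 1445, and of 5 adipocyte markers 1, at 196 to 582. In these bulk samples fewer cells of a type and less RNA per cell cannot be told apart, and the part of cell makeup in the repair values was not tested.

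Tumours 3 and 4 each held the highest signal of 6 of the 34 members (17.6%), beside 24.5% and 21.1% of all expressed genes. They held the lowest signal of 8 and 7 members, beside 21.1% and 25.1%. The members highest in tumour 3 were Xrcc5, Xrcc1, Ddb1, Ercc1, Xpc and Tp53bp1, of which 3 belong to nucleotide excision repair. Those highest in tumour 4 were Rpa1, Lig3, Parp1, Ercc2, Xpa and Mdc1.

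The other genes of these pathways were about as even as the members, and followed them tumour by tumour only in part. Of 86 further repair and checkpoint genes listed, 68 were named on the array and 51 passed the filter, with a median SD of 0.19 log2. A 2-fold range was reached by 2 of the 51, beside 12.4% of all expressed genes, both of the checkpoint group and both lowest in tumour 1. Wee1, the kinase that holds Cdk1 inactive, was at 9.11, 10.36, 10.27 and 10.06 log2 in tumours 1 to 4. Cdc25b, a phosphatase that undoes this inhibition, was at 7.50, 8.85, 8.45 and 8.16 log2. Wee1 and Cdc25b, which act against each other on the same kinase, thus shared their lowest and highest tumours. Of the 51 genes, 19 were highest in tumour 2 (37.3%), beside 26.4% of all expressed genes. By pathway, these were 8 of 14 for nucleotide excision, 4 of 13 for double-strand breaks, 4 of 9 for the checkpoint, 1 of 10 for base excision, 1 of 3 for mismatch repair and 1 of 2 for direct reversal. Tumour 1 was highest for 6 of the 13 double-strand break genes and 5 of the 10 base excision genes, beside 28.1% of all. It was also lowest for 5 of the 13 and 4 of the 10, beside 36.2% of all. The median differences in tumour 1 were 0.06 and 0.03 log2. Nucleotide excision repair differed in tumour 3, with a median of -0.09 log2 for the 14 further genes and 0.13 for the members. The double-strand break median in tumour 2 was 0.04 log2 for the 13 further genes and 0.21 for the members. Over all 51, the median in tumour 1 was -0.01 log2, and that of the members -0.17. In tumour 2 the medians were 0.11 log2 for the 51, 0.15 for the members and 0.04 over all expressed genes.

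Genes that answer to p53 outside the repair set varied about as much as the members. Of 18 listed, 13 were named on the array and 11 passed the filter, with a median SD of 0.18 log2, and their median difference in any tumour stayed between -0.07 and 0.09 log2. Gadd45a, a stress-induced gene, was the only one with a 2-fold range (9.09% of the 11, beside 12.4% of all expressed genes). It was at 10.17, 8.92, 9.87 and 9.20 log2 in tumours 1 to 4. Cdkn1a, the inhibitor of cell cycle kinases, was at 10.19, 9.75, 10.46 and 10.41 log2, lowest in tumour 2. Phlda3, a p53-induced inhibitor of Akt signalling, was at 11.49 log2 in tumour 1 and 10.59 to 10.78 log2 in the others.

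Several members share a start region with a neighbour read from the opposite strand, and the pairs did not vary together in every case. Within 1 kb of the member's start, such a neighbour was found for Rpa1 (Smyd4), Apex1 (Osgep), Ddb1 (Tkfc), Xpc (Lsm3) and Fancd2 (Emc3), among others. Smyd4, 144 bases from Rpa1, stayed under the filter at 7.48, 7.28, 7.52 and 7.63 log2. It was highest in tumour 4 like Rpa1, but lowest in tumour 2, where Rpa1 was near its highest. Osgep, 113 bases from Apex1, was at 9.40, 9.27, 9.39 and 8.86 log2, lowest in tumour 4 like Apex1 but without its peak in tumour 2. Tkfc, 153 bases from Ddb1, was lowest in tumour 1 like Ddb1, at 8.19 log2, but highest in tumour 2, at 8.66. Lsm3, 101 bases from Xpc, was at 10.49, 9.96, 10.54 and 10.21 log2, a wider spread than that of Xpc.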

How the data were processed

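Total RNA of 4 mammary cancers was labelled with biotin from an oligo-dT primer, per the labels' protocols, and hybridised to 1 array each. The deposited values are linear intensities as the authors gave them, 1 for each of 31099 probe sets. How they were made is not given in the sources used here. With 2% trimmed at either end, the mean was 500.1 on every array, so the arrays had been scaled before deposit, and median intensities were 201.8 to 221.9. The number of arrays limits the precision.

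Here the values were taken as deposited and transformed as log2(intensity + 16) in Python 3.11.15 with pandas 2.3.3. Probe sets of 1 named gene (20826) were used, and 57 control probe sets were left out. No member was named by a probe set of several genes. The brightest probe set stood for a gene, and the filter was the median of probe-set means. Group medians needed at least 3 expressed genes.

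Groups were not compared by a test, and the only criterion of that kind was Dixon's for a tumour that stands apart from the others. The members and lists were chosen with earlier results of these data known. Every member is described, with values in all tumours for those with a 2-fold range, the 4 of largest SD and the highest and lowest mean in each group, those nearest the filter and those whose probe sets disagree. Of the further repair genes, those with a 2-fold range are named, and of each accompanying list at most 3. Lists of basal, milk, T and natural killer, B, endothelial and adipocyte markers were also read. Promoters came from RefSeq, build GRCr8.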

Additional observations from a re-analysis of the deposited data

Results flagged for a closer look

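Of 51 member probe sets, 3 had 1 tumour set far from the other 3, by a gap past Dixon's critical value for 4 samples. Chance alone flags about 1 in 20 such groups, so 3 of 51 is near that share. Chek1 was at 9.66 log2 in tumour 2, against 9.06 to 9.12 log2 in the others, and the gap was 0.90 of the range. The less bright probe set of Lig4 was at 9.20 log2 in tumour 1, against 8.26 to 8.41 log2, a gap of 0.84 of the range, and its brighter probe set was also highest there. Xrcc1 was at 9.62 log2 in tumour 4, against 9.86 to 9.90 log2, a gap of 0.84 of a range that spans only 0.29 log2.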

How the results depend on the processing

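The median SD of the members stayed between 0.16 and 0.24 log2 under all 11 alternatives. The count of members with a 2-fold range was 3 with median-shifted arrays, with quantile normalization or with a pseudocount of 1. Tp53bp1 was among the 3 each time. The count was 1 with the filter at the 75th percentile, which left 14 members. It was 1 to 2 when each tumour was left out in turn. Among further repair genes the count was 1 with probe sets averaged, 1 with the filter at the 75th percentile and 8 without a filter, which admits dim genes. It was 0 without tumour 1 and 1 without tumour 2, so the range over left-out tumours was 0 to 2. Without tumour 1 the share of all expressed genes with a 2-fold range was 5.75%. Group medians kept their sign in 100 of 108 cases under other processing and in 41 of 48 with a tumour left out. The changes of sign concerned medians nearer 0 than 0.15 log2, except the checkpoint median in tumour 4, which was 0.32 and became -0.0044 without a filter. Left-out tumours moved it between 0.07 and 0.43. A median shift of the arrays moved the median of all expressed genes to -0.13, 0.10, 0.11 and -0.08 in tumours 1 to 4. It left 16 members highest in tumour 2, beside 32.0% of all expressed genes. The 6 genes with the E2F-type word were highest in tumour 2 under both other scalings and both other pseudocounts. Dim probe sets limit what can be said of Atr, Brca1, Chek2 and Xrcc4. No paired analysis was possible because there is 1 group.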
